A study of Mus musculus with 10 samples.

Results

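Junctions between a fixed DNA break on mouse chromosome 6 and sequence near the ends of genes on other chromosomes were examined in 10 translocation libraries. A junction belonged to this set if its prey, the sequence joined to the fixed break, lay on chromosome X or an autosome other than 6 (trans prey) and at most 2 kb from the first or last base of a protein-coding RefSeq gene. There were 2300 such near-end junctions among 13332 trans prey junctions, and 68433 junctions of any kind. The windows around the 41010 ends of 20505 genes covered 140 Mb, or 5.69% of the annotated length of these chromosomes, while 17.3% of trans prey fell in them. A RefSeq strand was at hand for 16322 genes (79.6%, and 0 of 511 on chromosome 18), so that their ends could be divided into starts and ends. The ends of the other genes were kept as unsplit.

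All libraries came from Abelson-transformed pre-B cells of C57BL/6 origin that lack LIG4 (Lig4 -/-), the ligase of classical non-homologous end joining, so this deficiency was shared by controls and treated cells. The cells were held in G1 with imatinib for 48 h, and a zinc-finger nuclease that makes the fixed break, called the bait, was induced with 1 µg/ml doxycycline from 24 h onward. The groups were untreated (n = 2), etoposide at 50 µM for 2.5 h with 12 h of recovery (n = 2), and, with 1 library per group, IFN or DRB (each with and without etoposide) and AsiSI (with and without DRB). DRB was given 2 h ahead and kept on. AsiSI was switched on with doxycycline and, 20 h later, 1 µM tamoxifen. The labels give IFN only as that abbreviation, name the controls of most treated libraries, and do not say whether the replicates were separate cultures. The labels also do not say whether the cells are 1 clone, and the data hold no expression values with which to check the cell type.

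Topoisomerase II relieves torsion by passing 1 DNA segment through a temporary double-strand cut in another, and etoposide holds the enzyme on the cut ends. The enzyme works where transcription and chromatin loops strain DNA, and its beta form is the main one in cells that do not divide. AsiSI is a restriction enzyme whose recognition site contains CpG pairs and is cut only where they are unmethylated, as in the CpG islands at many gene starts. DRB inhibits the kinase that releases RNA polymerase II from its pause just inside a gene.

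Depth differed widely. Libraries held 108 to 6441 trans prey junctions, and 11 to 1095 of them near gene ends. The junctions within 1 Mb of the bait numbered 1124 to 10485. By their read names the libraries belong to 4 runs of the sequencer: untreated and etoposide replicate 1; untreated replicate 2 with IFN and DRB; etoposide replicate 2 with IFN and etoposide and with DRB and etoposide; and both AsiSI libraries. The first run had longer prey alignments near gene ends (medians of 254 and 282 bp) than the other libraries (67 to 86 bp). AsiSI and untreated libraries shared no run. Untreated replicate 2, IFN and DRB were likewise in 1 run and their etoposide-treated counterparts in another. In these comparisons run and treatment cannot be told apart, and only replicate 1 compares etoposide with untreated within a run.

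The sequences below carry the clearest position information in the set. Each is a stretch of 30 bases around a match to the AsiSI site, which is in capitals, at a RefSeq gene start where prey junctions of both AsiSI libraries lay within 200 bp. They are read on the strand of the gene, from the RefSeq promoter table of GRCm38.p6, whose main chromosomes share their coordinates with mm10.
Klf7, chr1:64121464-64121493, - strand: gggggagagaaGCGATCGCgagaaaaaaaa
Romo1, chr2:156144249-156144278, + strand: cgtcgagctgaGCGATCGCagcggagaacg
Alas1, chr9:106247863-106247892, - strand: tagggccgccaGCGATCGCggccttaggct
Plk3, chr4:117133942-117133971, - strand: cttgccctggcGCGATCGCagcgtagagaa
Dusp5, chr19:53528928-53528957, + strand: cgagagagggaGCGATCGCccgccacttcc
Glrx2, chr1:143739605-143739634, + strand: tcgtcgtggtcGCGATCGCctgctgctctc
Map3k14, chr11:103267378-103267407, - strand: aggggcccggaGCGATCGCtggccagcgaa
Snx11, chr11:96777624-96777653, - strand: tcctctgaccaGCGATCGCcactgagagcc
Beyond the 8 shared letters the windows have little in common, and the sites lay at -206 to 27 bases from the RefSeq start (negative values are upstream).

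Sequence around the etoposide junctions themselves was not searched. The 250 bases before the starts of Tiparp and Cxcr4 are shown because these are, of the named etoposide genes with junctions at a start, the ones with the most and the fewest CpG pairs (capitals) of those whose RefSeq start is the gene's outer edge.
Tiparp, chr3:65528197-65528446, + strand: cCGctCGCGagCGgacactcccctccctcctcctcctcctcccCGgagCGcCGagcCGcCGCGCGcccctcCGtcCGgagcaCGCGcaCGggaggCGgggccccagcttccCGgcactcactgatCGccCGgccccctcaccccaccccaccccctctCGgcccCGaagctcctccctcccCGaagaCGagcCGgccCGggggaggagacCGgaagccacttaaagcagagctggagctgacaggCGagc
Cxcr4, chr1:128592300-128592549, - strand: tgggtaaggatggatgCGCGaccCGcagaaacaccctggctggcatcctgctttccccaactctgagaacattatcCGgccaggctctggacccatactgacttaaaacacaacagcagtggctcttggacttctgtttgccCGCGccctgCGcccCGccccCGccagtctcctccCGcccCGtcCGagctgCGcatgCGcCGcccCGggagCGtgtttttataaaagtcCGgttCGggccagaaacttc
The Tiparp stretch holds 28 CpG pairs and is 75.2% G and C. That of Cxcr4 holds 19, is 61.2% G and C, and has the letters TATAAA near its end. Over the full promoter windows of 300 bases the counts were 34 and 20, against a median of 14 over the 16322 promoters matched. Fam72a, Edaradd and Bax, which the condition on the outer edge left out, had fewer, at 10, 11 and 19.

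Etoposide treatment went with a larger share of trans prey near gene ends. The share was 7.29% in untreated replicate 1 (45 of 617 junctions, exact Clopper-Pearson 95% interval 5.37 to 9.64) and 10.2% in untreated replicate 2 (25 of 245, 6.71 to 14.7). It was 17% in etoposide replicate 1 (1095 of 6441, 16.1 to 17.9) and 17.4% in etoposide replicate 2 (357 of 2049, 15.8 to 19.1). Both etoposide libraries thus lay above both untreated ones, and the groups did not overlap. Intervals throughout cover counting error only. Over the share of length that the windows cover, these values were 1.28 and 1.79 times in untreated cells and 2.99 and 3.06 times with etoposide. The mean share was 17.2% ± 0.299 with etoposide and 8.75% ± 2.06 without (SD, n = 2 each), a difference of 8.46 percentage points. With 2 libraries against 2, the two-sided exact permutation p was 0.33, which is the lowest value this design permits. Within replicate 1, which is also within 1 run, the odds ratio was 2.60 (Fisher's exact test between libraries, p = 7.41e-11 adjusted over 11 contrasts). Within replicate 2 it was 1.86 (adjusted p = 0.00978), and this call was lost with windows of 1 kb (adjusted p = 0.135) and with prey alignments of at least 50 bp (adjusted p = 0.0628). Fisher's test compares single libraries and leaves out the spread between cultures.

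The number of near-end junctions also rose against the junctions around the bait. There were 40.04 near-end junctions per 1000 within 1 Mb of the bait in untreated replicate 1 and 914 in etoposide replicate 1, a ratio of 22.8 (16.8 to 31.1). In replicate 2 the values were 4.74 and 89.0, a ratio of 18.8 (12.5 to 28.2). Trans prey elsewhere rose by ratios of 8.77 and 10.1 in the same pairs. Near-end junctions therefore rose by more than other trans prey in both pairs, while the levels of both groups were several times higher in replicate 1 than in replicate 2. The geometric mean ratio of the pairs was 20.7, and ratios of geometric group means were 60.1 without untreated replicate 1, 7.12 without untreated replicate 2, 6.46 without etoposide replicate 1 and 66.3 without etoposide replicate 2.

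The rest of the trans prey with etoposide was also placed toward genes. Gene sequence more than 2 kb from an end, which makes up 36.2% of the length, held 55.1% and 55.2% of trans prey in the etoposide libraries, a density of 1.52 and 1.53 times its length. The sequence between genes was at 0.480 and 0.471 times its length. In untreated cells the densities were 0.945 and 1.06 in gene bodies and 1.01 and 0.885 between genes. Per length, near-end windows were thus the densest of these classes with etoposide. These are averages over each class, and the density inside gene starts stayed raised beyond the windows, as given below.

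**Figure D1:**
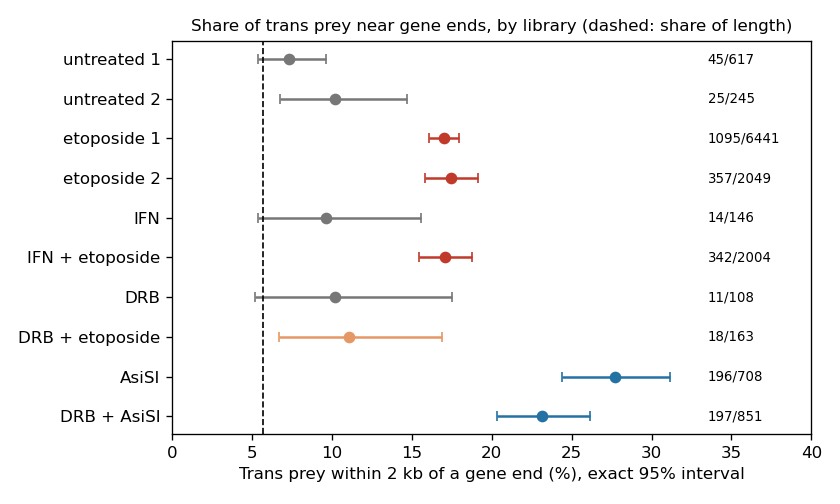
Share of trans prey junctions within 2 kb of a gene end (x axis, percent) in each of the 10 libraries (y axis), with exact 95% intervals and the counts at the right; the dashed line is the 5.69% of length that the windows cover. Both etoposide libraries and IFN with etoposide sit near 17%, the AsiSI libraries at 27.7% and 23.1%, the libraries without etoposide or AsiSI between 7.29% and 10.2%, and DRB with etoposide at 11.04%.

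Gene starts held more junctions than gene ends. Starts and ends with a known strand cover nearly the same length, 55.6 and 55.4 Mb. In the etoposide libraries 564 and 192 junctions lay nearest to a start and 288 and 89 nearest to an end, so starts took 66.2% and 68.3% of the split junctions. The windows at starts make up 50.1% of that length. The density at starts was 3.88 (3.57 to 4.19) and 4.15 (3.60 to 4.74) times the share of length, and at ends it was 1.99 (1.77 to 2.23) and 1.93 (1.56 to 2.37). The intervals for starts and ends did not overlap in either library. At unsplit ends the density was 3.21 and 3.15.

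The untreated libraries differed from each other in this respect, on small counts. Untreated replicate 1 had 19 junctions at each kind of end, a start density of 1.36 and an end density of 1.37. Untreated replicate 2 had 14 and 6 (70.0% at starts), with densities of 2.53 and 1.09, a start share above that of both etoposide libraries. The mean start density was 4.01 ± 0.192 with etoposide and 1.95 ± 0.825 without (SD, n = 2 each). The mean end density was 1.96 ± 0.0402 and 1.23 ± 0.198 (SD, n = 2 each). Each difference gave an exact permutation p of 0.33, again the lowest possible. The share of starts among the split junctions was 67.3% ± 1.51 with etoposide and 60.0% ± 14.1 without (SD, n = 2 each, exact permutation p = 1). That difference was smaller than the spread of the untreated libraries, and without untreated replicate 1 it turned to -2.74 percentage points.

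**Figure D2:**
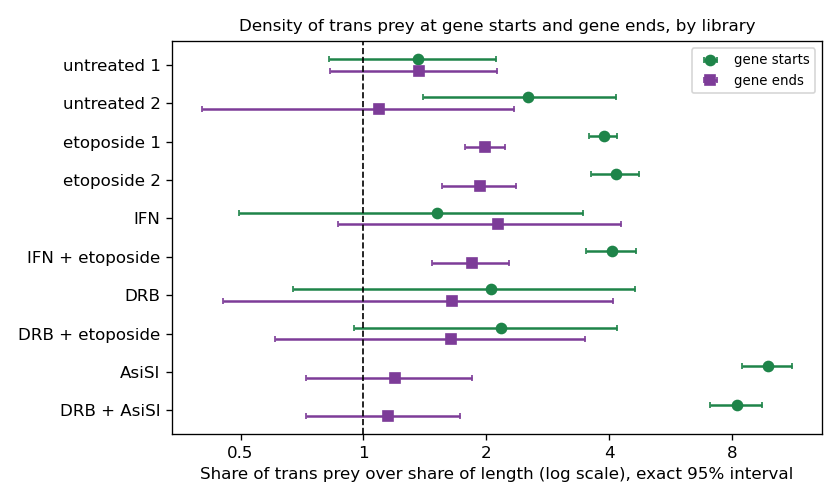
Density of trans prey at gene starts (green circles) and gene ends (purple squares), as the share of trans prey over the share of length on a log axis, by library, with exact 95% intervals; the dashed line at 1 is the density the length alone gives. Starts lie above ends in both etoposide libraries, in IFN with etoposide and in both AsiSI libraries, and the intervals overlap in the other 5.

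The junctions at starts lay mostly on the gene's side of the edge. Of the start junctions, 393 of 564 (69.7%) in etoposide replicate 1 and 132 of 192 (68.8%) in replicate 2 were inside the gene. Of the start windows, 49.6% lie there. The untreated replicates had 13 of 19 (68.4%) and 11 of 14 (78.6%) inside, and the AsiSI libraries 70.7% and, with DRB, 69.6%. This placement was thus not particular to etoposide. In bins of 500 bp the etoposide density was highest from 500 to 1000 bp inside the gene, at 6.57 (5.45 to 7.85) and 7.98 (5.86 to 10.6) times the length share. In the 500 bp before the start it was 3.27 and 3.05, and from 1500 to 2000 bp before the start it was 1.57 and 1.10. From 1500 to 2000 bp inside it was still 4.68 and 4.97. In the pooled libraries with neither etoposide nor AsiSI, 500 to 1000 bp inside was also the highest bin within 2 kb of a start. Its density there was 3.82 (1.98 to 6.65), on 12 junctions. At gene ends no bin within 2 kb stood out, with densities of 1.33 to 2.92 in etoposide replicate 1 and 1.09 to 2.61 in replicate 2. The gene start here is the outermost annotated base, and for 7.27% of genes the promoter table places its nearest RefSeq start more than 2 kb from it.

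**Figure D3:**
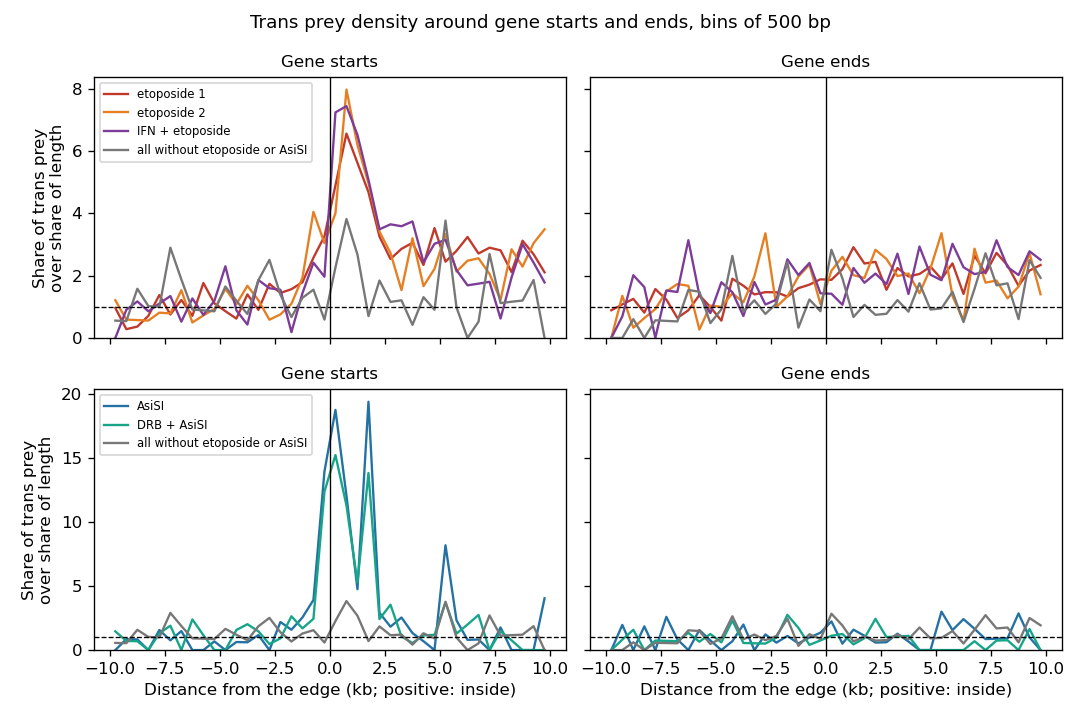
Density of trans prey (y axis, share of trans prey over share of length) in 500-bp bins by distance from gene starts (left) and gene ends (right), with positive distances inside the gene, for etoposide libraries (top) and AsiSI libraries (bottom); the grey line pools the 4 libraries with neither. With etoposide the highest bin is 500 to 1000 bp inside the start, and with AsiSI the bins from 500 bp before to 1000 bp after the start stand above the rest, as does the one at 1500 to 2000 bp, where Syde2 alone gave 30 of 35 junctions with AsiSI and 23 of 30 with DRB.

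The density of etoposide junctions at starts rose with the CpG count of the promoter. Genes were divided into 3 classes of similar size by the CpG count of the 300-base promoter window: low (up to 6), middle (up to 21) and high (over 21). In etoposide replicate 1 the start density was 1.17 (0.895 to 1.51) in the low class, 4.48 in the middle class and 6.16 (5.48 to 6.90) in the high class. In replicate 2 it was 1.44 (0.914 to 2.15), 4.11 and 7.11 (5.84 to 8.56). The low, middle and high classes held 59, 219 and 286 start junctions in replicate 1 and 23, 64 and 105 in replicate 2. The low class was thus near the density that length gives, and the order of the classes was the same in both libraries. At the ends of the same genes the density went from 0.855 to 2.70 and from 1.02 to 3.14 between the low and the high class. The untreated start densities were 1.04, 1.49 and 1.57 in replicate 1, on 5 to 7 junctions a class, and 0.523, 4.30 and 2.83 in replicate 2, on 1 to 8.

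**Figure D4:**
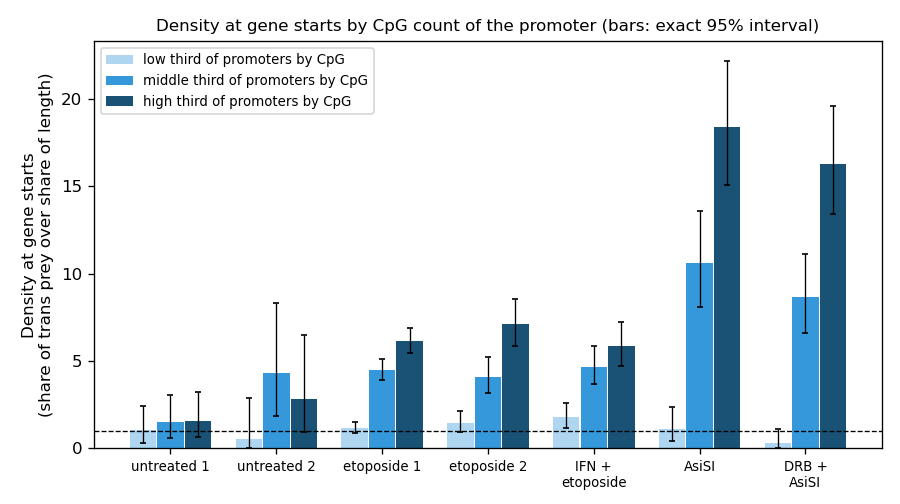
Density of trans prey at gene starts (y axis, share of trans prey over share of length) for genes in the low, middle and high class of promoter CpG count, by library, with exact 95% intervals; the dashed line is 1. The high class reached 6.16 and 7.11 with etoposide and 18.4 and 16.3 in the AsiSI libraries, while the low class lay between 0.301 and 1.79 in all 7 libraries shown.

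Other features of the starts differed less. The letters TATAAA, searched on both strands, occurred in 13.2% of all promoters and in 6.81% (34 of 499) and 10.2% (19 of 186) of those with an etoposide junction at the start. The letters CCGGAAGT, the core of an ETS family site, also searched on both strands, occurred in 5.41% of all promoters and in 5.81% and 5.91% of those hit. These are matches of letters only. By gene length, start densities in etoposide replicate 1 were 3.22 for genes under 10 kb, 3.96 from 10 to 30 kb, 4.79 from 30 to 100 kb and 3.52 above 100 kb. In replicate 2 they were 3.09, 4.96, 4.93 and 3.26. Starts with a gene on the other strand starting within 1 kb upstream had densities of 6.29 (4.41 to 8.69, 36 junctions) and 4.94 (2.26 to 9.36, 9 junctions), against 3.78 and 4.11 at single starts. The prey read into the gene at 48.6% and 46.4% of start junctions, with intervals (44.4 to 52.8 and 39.1 to 53.7) that include 50%.

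Etoposide junctions were spread thinly over genes. A near-end junction in at least 1 etoposide replicate was found at 1245 genes, 6.07% of the 20505. Of these, 1067 had 1 junction over both libraries, 152 had 2, 23 had 3 and 3 had 4. Genes hit in both libraries numbered 52 (0.254% of all genes), which is 5.46% of the 953 genes hit in replicate 1 and 15.1% of the 344 hit in replicate 2. IFN with etoposide shared 51 genes with replicate 1 (15.4% of its own 331) and 20 with replicate 2 (6.04%). In all 3 libraries, 8 genes were hit, with Btg2 and Edaradd among them, and no gene was hit in these 3 and in DRB with etoposide.

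No gene had more than 4 etoposide junctions. Zkscan16, a zinc-finger gene (chr4:58943568-58962624), had 4 in replicate 1 and 0 in replicate 2, and 1 more with IFN and etoposide. Its 5 junctions lay at 4 positions, with the repeated position within replicate 1. Cxcr4, the receptor that keeps B-cell progenitors in the bone marrow niche (chr1:128588199-128592299), had 3 in replicate 1 and 1 in replicate 2, and 0 in the other 8 libraries. These lay at 4 positions with offsets of -918 to 1619 bp, where positive offsets are inside the gene. Ipmk, an inositol phosphate kinase (chr10:71347744-71385885), had 4 in replicate 1, all near its 3-prime end and at 3 positions. Its junctions were all in 1 library.

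Of the 23 genes with 3 junctions, those named here had 2 in replicate 1 and 1 in replicate 2. Ties were broken toward genes hit in more etoposide-treated libraries, so the naming rule favoured this split. Socs3, named below from a gene list, had all 3 in replicate 1. Bax, which opens mitochondria in apoptosis (chr7:45461695-45466903), had them 1194 to 1592 bp inside its start. Tiparp, an ADP-ribosyltransferase (chr3:65528447-65555518), had them within 51 bp of each other, 1253 to 1304 bp inside its start. Ptger4, a prostaglandin receptor (chr15:5233399-5244187), had them 967 to 1576 bp inside. In these genes the junctions thus lay in the first 2 kb of the transcribed part. Those of Fam72a, an antagonist of uracil excision, lay upstream of its start, at offsets of -1206 to -635 bp. Edaradd, an adaptor of the ectodysplasin receptor, had 1 more with IFN and etoposide and 3 in the AsiSI library, and Frs2, Rbm6 and Vamp2 had 0 in the other 8 libraries. Rbm6 had 2 of its 3 nearest to its 3-prime end. The 3 of Vamp2 lay at 2 positions.

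A fit per gene said little at these counts. Only 1 gene had the 5 junctions over the untreated and etoposide libraries that the planned fit asked for. With at least 3, 37 genes were left, and 35 of them had 0 in both untreated libraries. limma called 0 of 37 (0.00%) after Benjamini-Hochberg adjustment, with 2 at an unadjusted p under 0.05, and Fisher's exact test on pooled junctions called 0, with 1 unadjusted. With untreated counts of 0 the fitted changes follow the library sizes, so the fit gave no direction that can be read, and its other settings (0 to 34 calls) are not taken as results.

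Gene lists differed in how many members were hit by etoposide. In the B-lineage list 11 of 31 members (35.5%) had a near-end junction in at least 1 etoposide replicate, against 6.07% of all genes. A member counts as hit if its end is the nearest to the junction, while the density takes every junction in the list's windows, here 9 and 3, or 14.6 ± 0.482 times its share of length (SD, n = 2), against 3.03 ± 0.0526 for all genes. Its members include Lef1, a transcription factor of lymphoid progenitors, with 2 junctions in replicate 1, and Blnk, the adaptor of pre-B receptor signalling, and Cd24a, a surface marker of B progenitors, with 1 each. The other members hit, each with 1, were Tcf3, Ikzf1, Foxo1 and Irf8 among the transcription factors, Cd79a, Cd79b and Il7r among the receptors, and Rag1 of the recombinase. Of the immediate-early list, genes induced within minutes of a stimulus, 11 of 31 (35.5%) were hit, with 13 and 2 junctions and a density of 16.3 ± 8.02. Btg2, which slows the cell cycle, had 1 in each replicate, and Tnfaip3, which ends NF-kB signalling, had 2 in replicate 1. Both libraries of these lists lay above the density over all genes.

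Housekeeping, ribosomal protein and leukaemia translocation genes were also above the density over all genes. Of the housekeeping list 10 of 34 members (29.4%) were hit, with 9 and 4 junctions and a density of 15.6 ± 3.67 (SD, n = 2). Eef2, the translocation factor of the ribosome, and Actb, the cytoskeletal actin, had 2 each in replicate 1. Of the ribosomal protein genes 11 of 75 (14.7%) were hit, with 13 and 4 junctions and a density of 9.27 ± 0.218. Rpl11 and Rps19 were hit once in each replicate. Of the genes known from leukaemia translocations 11 of 40 (27.5%) were hit, each with 1 junction, at a density of 11.7 ± 4.71. Of these, Tcf3, Ikzf1, Npm1, Aff4 and Myc are also in other lists. Aff1, the MLL partner, had 1 in replicate 1 and 1 with IFN and etoposide.

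Lists of break response, elongation and histone genes rested on few members. Of the p53 targets 4 of 24 (16.7%) were hit at a density of 9.15 ± 4.04, with Bax, Plk3 and Polk among them. Of the elongation and chromosome architecture genes 3 of 35 (8.57%) were hit: Aff4, Hexim1 and Supt6, each known for a part in polymerase release or elongation, and the density was 7.04 ± 2.21 (SD, n = 2). Of the break repair genes and topoisomerases 3 of 38 (7.89%) were hit. Top2b, which encodes the beta form of the enzyme that etoposide traps, had 1 in each replicate, and Parp1 and Rad50 had 1 each in replicate 2 and replicate 1, and the density was 5.89 ± 2.95 (SD, n = 2). Of the canonical histones 4 of 66 (6.06%) were hit, at a density of 7.67 ± 5.61 (SD, n = 2). These shares rest on 3 or 4 genes each, and the last 3 are near the 6.07% of all genes, while the densities lay above the 3.03 of all genes.

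Lists of receptor, developmental, other blood lineage and Zfp genes had shares of members hit below the 6.07% of all genes. Of 1082 olfactory receptor genes 1 (0.0924%) was hit, at a density of 0.0332 ± 0.0469, and of 293 vomeronasal receptors 0, where a count of 3 would give 0.478. Of the developmental regulators 1 of 70 (1.43%) was hit, Nkx2-2, and of the Hox genes 1 of 28 (3.57%), Hoxc9. Of 24 genes of other blood lineages 0 were hit, where 3 counts would give a density of 5.04. The Zfp zinc-finger genes, with 16 of 350 hit (4.57%), had a density of 2.59 ± 0.692, near the 3.03 of all genes. The Hox and other blood lineage lists were too small to place against that density. All lists were chosen with earlier results of these data known, and their densities carry no test.

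**Figure D5:**
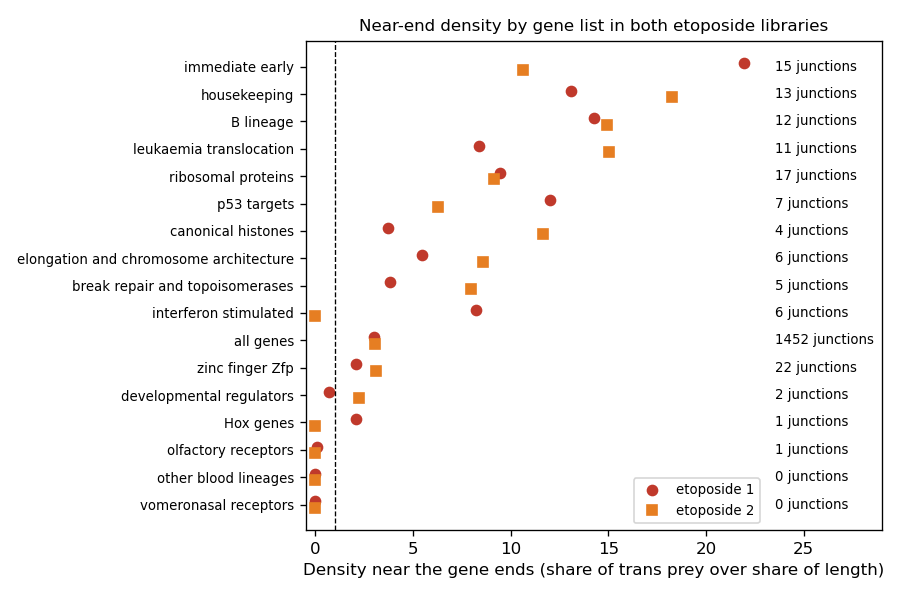
Density of trans prey within 2 kb of gene ends (x axis, share of trans prey over share of length) for each gene list (y axis) in etoposide replicate 1 (circles) and replicate 2 (squares), with the summed junctions at the right; the dashed line is 1. Immediate-early, housekeeping and B-lineage genes reach means of 14.6 to 16.3, all genes 3.03, and the olfactory and vomeronasal receptors lie at or near 0.

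IFN did not move the near-end share of etoposide-treated cells by a detectable amount, but the start junctions lay inside the gene more often. With IFN and etoposide the share was 17.1% (342 of 2004, 15.4 to 18.8). It differed from etoposide replicate 2, of the same run, by -0.357 percentage points (95% interval -2.68 to 1.97, Fisher's exact test, adjusted p = 0.942) and from replicate 1, the control that the labels name, by 0.0654 (-1.82 to 1.95, adjusted p = 1). Starts took 68.9% of its split junctions. Of its 184 start junctions 149 (81.0%, 74.6 to 86.4) lay inside the gene, against 69.7% and 68.8% with etoposide alone (Fisher's exact test, p = 0.0344 and 0.0484 adjusted over 11 contrasts). The density in the 500 bp before the start was 1.97, and in the first 500 bp inside it was 7.25, against 4.90 and 4.01. This comparison was added after the values were seen, and 1 library has no replicate check. At starts with a divergent neighbour the density was 12.3 (7.75 to 18.6, 22 junctions).

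IFN alone left 14 of 146 junctions near gene ends (9.59%, 5.34 to 15.6), within the range of the untreated libraries. The share with IFN and etoposide was 7.48 percentage points higher than with IFN alone, from another run (Fisher's exact test, adjusted p = 0.0449), and the call was lost with windows of 1 kb (adjusted p = 0.258) and with prey alignments of at least 50 bp (adjusted p = 0.191). Per junction near the bait the near-end count was 27.6 times that of IFN alone (16.1 to 47.2). Other trans prey were 14.2 times as many (11.8 to 17.1). Of the interferon-stimulated list 3 of 37 members (8.11%) were hit by etoposide alone, near the 6.07% of all genes. They were Socs3 with 3 junctions, Socs1 with 2 and Parp14 with 1, all in replicate 1. The list held 2 junctions with IFN and etoposide, a density of 8.79 against 3.00 over all genes. It held 6 and 0 in the etoposide replicates, densities of 8.20 and 0. Their mean was 4.10 ± 5.80 (SD, n = 2), against 3.03 over all genes. IFN alone gave 0 junctions and untreated replicate 1 also 0, while untreated replicate 2 had 1, which at its depth is a density of 35.9.

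DRB went with far fewer near-end junctions after etoposide. There were 18 among 163 trans prey with DRB and etoposide (11.04%, 6.68 to 16.9), and 7.98 per 1000 junctions near the bait, against 89.0 in etoposide replicate 2 of the same run, a ratio of 0.0897 (0.0557 to 0.144). Other trans prey fell too, to a ratio of 0.153 (0.128 to 0.182). Against etoposide replicate 1 the near-end ratio was 0.00873, across runs. The share itself differed by -6.38 percentage points from replicate 2 and by -5.96 from replicate 1, the control that the labels name. Neither passed Fisher's exact test (adjusted p = 0.0606 for both), and both passed when each position was counted once (adjusted p = 0.0178 and 0.0180), with windows of 5 kb (0.0225 and 0.0287) and with prey alignments of at least 50 bp (0.0203 for both).

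Compared with DRB alone, the share with etoposide did not pass the test. DRB alone had 11 of 108 (10.2%, 5.20 to 17.5), 0.858 percentage points below DRB with etoposide (95% interval of the difference -6.60 to 8.32, adjusted p = 1). Per junction near the bait the near-end count with etoposide was 2.28 times that of DRB alone (1.07 to 4.83). Other trans prey were 2.08 times as many (1.60 to 2.71). The odds ratio of etoposide was 1.09 in DRB-treated cells and 1.86 in the untreated pair of replicate 2, and the first over the second was 0.590 (95% interval 0.239 to 1.45), so a difference was not detectable at this depth. Of the 18 junctions 8 lay at starts, 6 at ends and 4 at unsplit ends, and 4 of the 6 at ends were at 1 position near Crisp1.

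The AsiSI libraries had the largest near-end shares, and 80.1% and 80.2% of their near-end junctions lay at a known start. The share was 27.7% with AsiSI (196 of 708, 24.4 to 31.1) and 23.1% with DRB and AsiSI (197 of 851, 20.4 to 26.1), or 4.87 and 4.07 times the share of length. AsiSI was 20.4 percentage points above untreated replicate 1 and 17.5 above replicate 2 (Fisher's exact test, adjusted p = 5.89e-22 and 1.65e-08). Per 1000 junctions near the bait there were 26.4 near-end junctions, between the 40.04 and 4.74 of the untreated libraries, so the order of these rates depends on the untreated library taken. Of the junctions that could be split, starts took 157 against 19 at ends (89.2%) and, with DRB, 158 against 22 at ends (87.8%). The start density was 9.81 (8.48 to 11.2) and 8.22 (7.08 to 9.45), and the end density was 1.19 and 1.15. The start share was above that of untreated replicate 1 (adjusted p = 2.91e-06) and did not pass against replicate 2 (adjusted p = 0.145). In bins of 500 bp the start density with AsiSI was 13.9 just before the start, 18.7 and 12.1 in the first and second bins inside it, and 19.4 from 1500 to 2000 bp inside. With DRB these bins were at 12.4, 15.2, 11.3 and 13.8. The bin at 1500 to 2000 bp was mostly 1 gene, since Syde2 held 30 of its 35 junctions with AsiSI and 23 of 30 with DRB, and without Syde2 its density was 2.90 and 3.34. Gene bodies away from ends were at 0.839 and 0.828 times their length, below 1, where etoposide had 1.52 and 1.53.

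A small set of genes held about as many AsiSI junctions as all others. A near-end junction in either AsiSI library was found at 162 genes (0.790% of all). Of these, 23 (0.112%) had 3 or more junctions in the pooled AsiSI libraries but 0 elsewhere, and they held 99 of the 196 in AsiSI (50.5%) and 88 of the 197 with DRB (44.7%). Without them the shares were 15.9% and 14.3%, with start densities of 4.51 and 4.23. The genes were chosen by these counts, so leaving them out could only lower the AsiSI shares, and the values carry no test. The 2 AsiSI libraries shared 40 genes, 41.2% of 97 and 38.1% of 105.

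Syde2, a gene for a GTPase-activating protein (chr3:145987405-146021720), had 33 junctions with AsiSI and 29 with DRB and AsiSI, 53 of the 62 from 1500 to 1800 bp inside its start. Without Syde2 the shares were 24.1% and 20.4%. Rcor1, the CoREST corepressor, had 8 and 8, Mex3a, an RNA-binding protein gene, 9 and 6, and Nfs1, the cysteine desulfurase of mitochondria, 6 and 4. Alas1, the first enzyme of haem synthesis, had 6 and 3, Dyrk3, a kinase, 4 and 3, and Klhdc4 4 and 3. Fam160b1 had 0 with AsiSI and 7 with DRB. Each of these 8 genes had 0 in the other libraries by the way they were chosen, and every one of their junctions lay at the start. Dyrk3 and Klhdc4 had theirs at medians of 58 and 175 bp inside the gene.

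The AsiSI site itself was at hand only for promoter windows. Of 16322 promoters 48 (0.294%) held it, and over all RefSeq starts there were 53 gene and site pairs. Of the promoters with a start junction 10 of 66 (15.2%) held the site in AsiSI and 12 of 68 (17.6%) with DRB, against 5 of 499 (1.00%) in etoposide replicate 1 and 0 of 186 in replicate 2. Junctions within 200 bp of a site numbered 19 with AsiSI and 21 with DRB, and 0 in the other 8 libraries together. They were at 14 of the 53 sites, 11 in each library and 8 in both. The median distance from the middle of the site was 26 bp in each.

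The sites printed above differed in their counts. Klf7, a zinc-finger transcription factor gene, had 2 junctions at its site with AsiSI and 6 with DRB, and Plk3, a p53-responsive kinase gene, 1 and 4. The site shared by the divergent starts of Romo1, a mitochondrial protein gene, and Nfs1 had 5 and 3, and that of Alas1 4 and 1. Dusp5, a phosphatase gene, Glrx2, a mitochondrial glutaredoxin, Map3k14, the NF-kB inducing kinase, and Snx11, a sorting nexin, had 1 and 1 each. All 12 minus-strand junctions of AsiSI lay to the left of the site and all 7 plus-strand ones to the right, so that the joined prey led away from the site. With DRB this held for 12 of 13 and 8 of 8.

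DRB did not change the AsiSI share by an amount that passed the test. The share with DRB was 4.53 percentage points lower (95% interval -8.88 to -0.188, Fisher's exact test, unadjusted p = 0.0406, adjusted p = 0.0606), and with prey alignments of at least 50 bp the difference passed (-6.66, adjusted p = 0.0423). Per junction near the bait the near-end ratio was 0.712 (0.583 to 0.870), and that of other trans prey 0.905 (0.803 to 1.02). The odds ratio of DRB was 0.787 with AsiSI and 0.588 with etoposide in replicate 2, and the first over the second was 1.34 (95% interval 0.770 to 2.32). The share effects were thus not shown to differ, while the near-end counts per junction near the bait stood at 0.712 and 0.0897 of those without DRB.

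A few gene ends recurred without etoposide or AsiSI. Over the untreated, IFN and DRB libraries 86 genes (0.419%) had a near-end junction, and the 2 untreated libraries shared 0 of their 45 and 22. Narf, which encodes a binding partner of prelamin A (chr11:121237236-121255856), had the most over the untreated, IFN and DRB libraries, 4. Over all libraries it had 29 junctions. They were 3 in untreated replicate 2, 2 in etoposide replicate 2, 3 in IFN with etoposide, 1 in DRB, 1 in DRB with etoposide, 7 in AsiSI and 12 in DRB with AsiSI. The other 3 libraries had 0, the run with the longest prey alignments among them. Of the 29, 25 lay 400 to 600 bp inside the start, at varied positions.

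At Crisp1, a gene of the male reproductive tract (chr17:40293758-40319207), the 8 junctions were alike. They had the same position, at an offset of -1973 bp from the 3-prime end (outside the gene), and the same orientation in 5 libraries of 2 runs, 4 of them in DRB with etoposide. BC034090 had 7 junctions in 6 libraries, 301 to 381 bp inside its 3-prime end. Arc, an immediate-early gene of neurons, had 7 and Panx1, a channel gene, 3. Over all genes 21 of 2211 near-end positions occurred in more than 1 library, and 16 of the 21 were shared by both AsiSI libraries alone.

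Near-end junctions had fewer inserted bases than other trans prey in 4 libraries. Bases that matched neither bait nor prey were present in 3.29% of near-end and 5.07% of other junctions in etoposide replicate 1 (Fisher's exact test, p = 0.0609 adjusted over 30 tests). In replicate 2 they were present in 1.12% and 4.26% (adjusted p = 0.0220) and with IFN and etoposide in 0.585% and 3.79% (adjusted p = 0.0103). With AsiSI they were present in 10.7% and 26.8% (adjusted p = 5.35e-05) and with DRB and AsiSI in 15.7% and 26.9% (adjusted p = 0.0123). In these 5 libraries the share was lower near gene ends. With prey alignments of at least 50 bp the calls of both AsiSI libraries were lost (adjusted p = 0.168 and 0.877), and the part of short prey alignments in this result was not tested. The call of etoposide replicate 2 was lost with windows of 1 and 5 kb (adjusted p = 0.225 and 0.165) and that of IFN with etoposide with 5 kb (0.171). In the other 5 libraries, with 11 to 45 near-end junctions, no test passed, and the difference was -0.23 and -4.82 percentage points in the untreated libraries but 3.68 in IFN, 1.69 in DRB and 0.805 in DRB with etoposide.

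Microhomology, bases shared by bait and prey at the joint, near gene ends did not differ from that elsewhere by an amount that passed a test. At least 4 such bases were found in 39.0% of near-end and 36.4% of other junctions in etoposide replicate 1 (adjusted p = 0.353) and in 28.6% and 31.5% in replicate 2 (adjusted p = 0.667). The median was 3 bases for near-end and for other junctions in both. The share of plus-strand prey was 50.6% and 48.7% near ends in the 2 etoposide libraries. No test of microhomology or strand passed in any of the 10 libraries.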

How the data were processed

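Genomic DNA was analysed by high-throughput genome-wide translocation sequencing, which reads what has joined to a fixed break. The deposited files list 1 junction per line with its position, strand and alignment of bait and prey (per the file headers), so other values, such as read counts, are not in use and nothing is normalized. Per the labels' protocols the usual LAM-HTGTS pipeline was run; bedtools, mm10 and GRCm38.p2 stand in the submitters' processing notes. The aligner and filters are not given in the sources used here, so repeated positions may be molecules or copies. Of 68433 junctions, 55006 were on chromosome 6 and 95 off chromosomes 1 to 19 and X.

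Genes came from the RefSeq table of GRCm38.p6 and strands from its promoter table (250 bases before to 50 after a start). Each junction went to its nearest gene end. Length was counted from the first to the last annotated gene of a chromosome (2462.7 Mb in all). Groups and replicate numbers came from the labels. Shares were compared with the exact permutation test over libraries and, between single libraries, with two-sided Fisher's exact tests, adjusted by Benjamini and Hochberg's method (threshold 0.05). Nothing says that replicates were separate cultures, so p-values over libraries measure the spread between these libraries only. Intervals of odds and rate ratios are normal approximations on the log scale. Python 3.11.15, scipy 1.17.1, R 4.3.3 and limma 3.58.1 were used, and densities, Fisher's test and the fit were tested on simulated data. The simulated counts for the fit were deeper than the real ones, so that test does not cover the fit at the counts found here.

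The numbers pair the libraries because the labels name each untreated library as the control of the etoposide library of the same number. The set of junctions, the gene lists and the tests were chosen with earlier results of these data known. Named genes were the 12 with the most junctions over both etoposide libraries, the 8 with the most AsiSI junctions among genes that the other 8 libraries did not hit, the 5 with the most over untreated, IFN and DRB libraries, and up to 3 members of each of 16 lists. Ties among the 12 went to genes hit in more etoposide-treated libraries, then to those with more junctions with IFN and etoposide, then by alphabet. A named gene that is withheld is not reported here. Alternatives were windows of 1 and 5 kb, unique positions, prey alignments of at least 50 bp, removal of 3 recurrent 20-kb windows, starts taken whatever the nearest end, and leaving out libraries.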

Additional observations from a re-analysis of the deposited data

How the results depend on the processing

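Of 141 alternative values over 22 results, 110 were counted as unchanged. For Fisher's tests this meant the same direction and the same side of the threshold. The permutation p cannot reach the threshold with 2 libraries against 2, so for those results only the direction could change. Ratios per junction near the bait and counts of genes were judged by size alone. The 110 are thus not a count of calls that held. With windows of 1 kb, the near-end share of etoposide replicate 2 minus untreated replicate 2 was 3.57 percentage points and that of IFN with etoposide minus IFN 3.47, both no longer past the threshold, while DRB with etoposide minus DRB turned to -1.57 and IFN with etoposide minus etoposide replicate 1 to -0.119. With windows of 5 kb, DRB with etoposide minus etoposide was -8.59 and -9.30 (replicates 1 and 2, now past the threshold), and IFN with etoposide minus etoposide replicate 2 turned to 1.03. With each position counted once, DRB with etoposide minus etoposide was -7.48 and -7.95 (now past the threshold) and minus DRB it turned to -0.810. With prey alignments of at least 50 bp, etoposide replicate 2 minus untreated was 6.17 and IFN with etoposide minus IFN 6.03 (both no longer past the threshold). DRB with etoposide minus etoposide was then -8.58 and -8.63 and DRB with AsiSI minus AsiSI -6.66 (now past it), DRB with etoposide minus DRB turned to -4.91, and IFN with etoposide minus etoposide replicate 2 to 0.304. Without the 23 AsiSI genes, AsiSI minus untreated replicate 2 was 5.72 and no longer past it, where the choice of genes could only lower the value; this setting, that without Syde2 and all settings of the inserted bases were chosen after seeing the data. The cause of these changes was not tested.

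The libraries are paired by replicate number. With the replicate block the near-end share was 8.46 percentage points higher with etoposide (9.71 and 7.22 in the pairs). The start share was 7.26 higher and the near-end ratio per junction near the bait 20.7, as without the block. The sign-flip p were 0.5, 1 and 0.5. With these pairs that p cannot go below 0.5, so no call could change. Leaving out 1 library at a time gave near-end ratios of 6.46 to 66.3 and start share differences of -2.74 to 17.3, the extreme ratios without an etoposide library and the extreme start shares without an untreated one. The limma fit called 34 genes without untreated replicate 1, 0 in the other such fits, 2 with the replicate block and 0 with library size set to junctions near the bait. Since 35 of its 37 genes had 0 in both untreated libraries and the median log2 change went from -1.77 to 1.52 with that library size, these calls say nothing about direction. Without etoposide replicate 1, and with at least 5 junctions, too few genes were left to fit.

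Depth limits the libraries with DRB or IFN alone, DRB with etoposide and both untreated ones, whose 11 to 45 near-end junctions leave wide intervals. Strand was not at hand for 20.4% of genes.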
